A study of Mus musculus with 15 samples.

Results

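The 50 genes described here encode proteins of the core spliceosome, the heterogeneous nuclear ribonucleoproteins (hnRNPs) and regulators and kinases of splicing. They were taken by Ensembl gene identifier from a list of names. The rule itself uses no measured value, but the list and its division by role were chosen with earlier results of these data known. All 50 were present in both deposited gene tables, which held 13501 genes (OE and EV) and 13669 genes (KD and shScr). Their 269 transcripts were taken from a table of 30220. By role they comprised 13 proteins of the U1 and U2 small nuclear ribonucleoproteins (snRNPs) and of branch point recognition, 7 proteins of the Sm ring, 6 of the tri-snRNP and the Prp19 complex, 11 hnRNP proteins, 10 splicing regulators and 3 kinases of SR proteins.

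Splicing begins when the U1 snRNP binds the upstream splice site and Sf1 and the U2af proteins bind the branch point and the downstream splice site. The U2 snRNP with its Sf3a and Sf3b proteins then takes the place of Sf1, the tri-snRNP joins, and the Prp19 complex helps to activate the particle. Proteins of the hnRNP family coat the nascent transcript and often act against SR proteins, whose activity and position in the nucleus depend on phosphorylation by the Clk and Srpk kinases. Many genes of this machinery control their own level by splicing to transcripts that are degraded.

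RNA was sequenced from monolayer cultures of 6DT1, a cancer cell line of the mouse mammary gland, in 15 libraries of 5 transduced lines with 3 libraries each. The question was how the RNA of the splicing machinery behaves when Smarcd1, one of the subunits of BAF chromatin remodelling complexes, is raised or lowered. OE carried a Smarcd1 coding sequence with a Myc tag at its C-terminus, EV carried the empty vector, and both were kept under blasticidin. KD4 and KD6 each carried a different short hairpin against Smarcd1, shScr carried a scrambled hairpin, and all were kept under puromycin, so that drug and vector differed between the OE and EV pair and the hairpin lines. Each line is a single transduced population, and its replicates were separate passages of that population plated on successive days and harvested 24 h after plating at 70% confluence. P values therefore measure the spread between passages of a line, and a difference between lines cannot be told apart from a difference between transductions. Together KD4 and KD6 formed the KD group of 6 libraries. For KD the spread behind the p values also holds the difference between the hairpin lines, so it is not only that between passages. In bulk RNA such as this, fewer cells with a transcript and less of it per cell cannot be told apart.

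Levels are in CPM, the counts of a gene scaled to a fixed library total, and not by gene length, so that they are compared between libraries and not between genes. Depth per library is unknown. The listed genes summed to between 894250 and 923092 CPM in every library of the gene tables. Of the epithelial markers 3 of 7 were listed (Krt8, Krt18 and Krt19), summing to between 660.2 and 960.6 CPM, and of the fibroblast, immune and endothelial markers Pdgfra (2.54 to 7.75 CPM), Cd68 (27.4 to 68.7 CPM) and, in the OE and EV table, Kdr (0.880 to 1.84 CPM). Some of these moved with the hairpins. In KD4 Pdgfra rose by 1.05 (limma, adjusted p = 0.000458), from 2.54 to 3.55 CPM in shScr to 7.12 to 7.75 CPM, and Krt19 fell by 0.76 (adjusted p = 0.00106), from 21.5 to 23.2 CPM to 11.9 to 13.5 CPM. Both differed between the hairpins (adjusted p = 0.0170 and 0.0136), and Pdgfra also rose in KD (0.76, adjusted p = 0.0425). Of 12 proliferation genes Ccna2 and Mcm5 rose in KD4 (0.30 and 0.26, adjusted p = 0.0405 and 0.0462), and 11 of the 12 had a higher mean in KD. The part of these differences in the KD4 and KD results was not tested. On the first principal component EV replicate 1 lay far from the rest of its table (23.7 against -11.3 to -1.07 for the other 5 libraries), which held 40.2% of the variance. Transcripts of the 13 protein genes of mitochondrial DNA took 4.44% to 5.06% of the listed CPM in the OE and EV table, highest in EV replicate 1, and 3.06% to 3.99% in the other.

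Smarcd1 (ENSMUSG00000023018) was measured first, as the check of the labels. It stood at 31.9, 27.1 and 29.9 CPM in EV and at 70.4, 65.0 and 61.7 CPM in OE, a log2 change of 1.12 ± 0.074 (SE) with an adjusted p of 0.00355 (limma with Benjamini-Hochberg adjustment over all genes, as for every adjusted p of a gene level below). Without EV replicate 3 or OE replicate 2 its adjusted p was 0.0520 or 0.0533. It stood at 14.5, 16.5 and 15 CPM in shScr, at 9.07, 9.05 and 9.27 CPM in KD4 and at 13.2, 14.8 and 15.1 CPM in KD6. Every KD4 library was below every shScr library, whereas the KD6 libraries overlapped shScr. The change passed the test in KD4 (-0.69, adjusted p = 0.000873) and not in KD6 (-0.090, adjusted p = 0.701) or in KD (-0.39, adjusted p = 0.268), and it differed between the hairpins (0.60, adjusted p = 0.00292). The libraries labelled KD6 thus did not show a lower Smarcd1 level, and every direction given for KD6 or for KD as a whole carries that limit.

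No gene of the 50 passed an adjusted p of 0.05 in any comparison of gene levels. In OE against EV 0 of 50 members passed, beside 0.00741% of all 13501 genes, where the only gene called was Smarcd1. In KD against shScr 0 of 50 passed beside 2.66% of all 13669 genes, in KD4 against shScr 0 of 50 beside 9.58%, in KD6 against shScr 0 of 50 beside 2.91%, and in KD6 against KD4 0 of 50 beside 4.91%. At an unadjusted p under 0.05 the members numbered 9 in OE (6 higher and 3 lower), 3 in KD, 7 in KD4, 2 in KD6 and 2 between the hairpins. As shares of the members these came to 18%, 6%, 14%, 4% and 4%, beside 13%, 17.3%, 24.7%, 15.3% and 17.4% of all genes. In OE 7.68% of all genes were higher and 5.27% lower at that p.

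The intervals of the members were narrow. In OE against EV, in KD against shScr and in KD6 against shScr the 95% interval of the log2 change lay within a 1.5-fold change in either direction for all 50 members, and this held for 92.9%, 88.4% and 87.6% of all genes. In KD4 against shScr it held for 47 of 50 members and 83.1% of all genes. The median absolute log2 change of the members was 0.077 in OE and 0.077 in KD, and over all genes it was 0.080 and 0.10. Mean levels of the members ran from 20.9 CPM (Snrpg, KD and shScr table) to 1262 CPM (Hnrnpu, same table). All genes include those down to a geometric mean of 1 CPM, so the members and all genes were not matched for level.

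**Figure D1:**
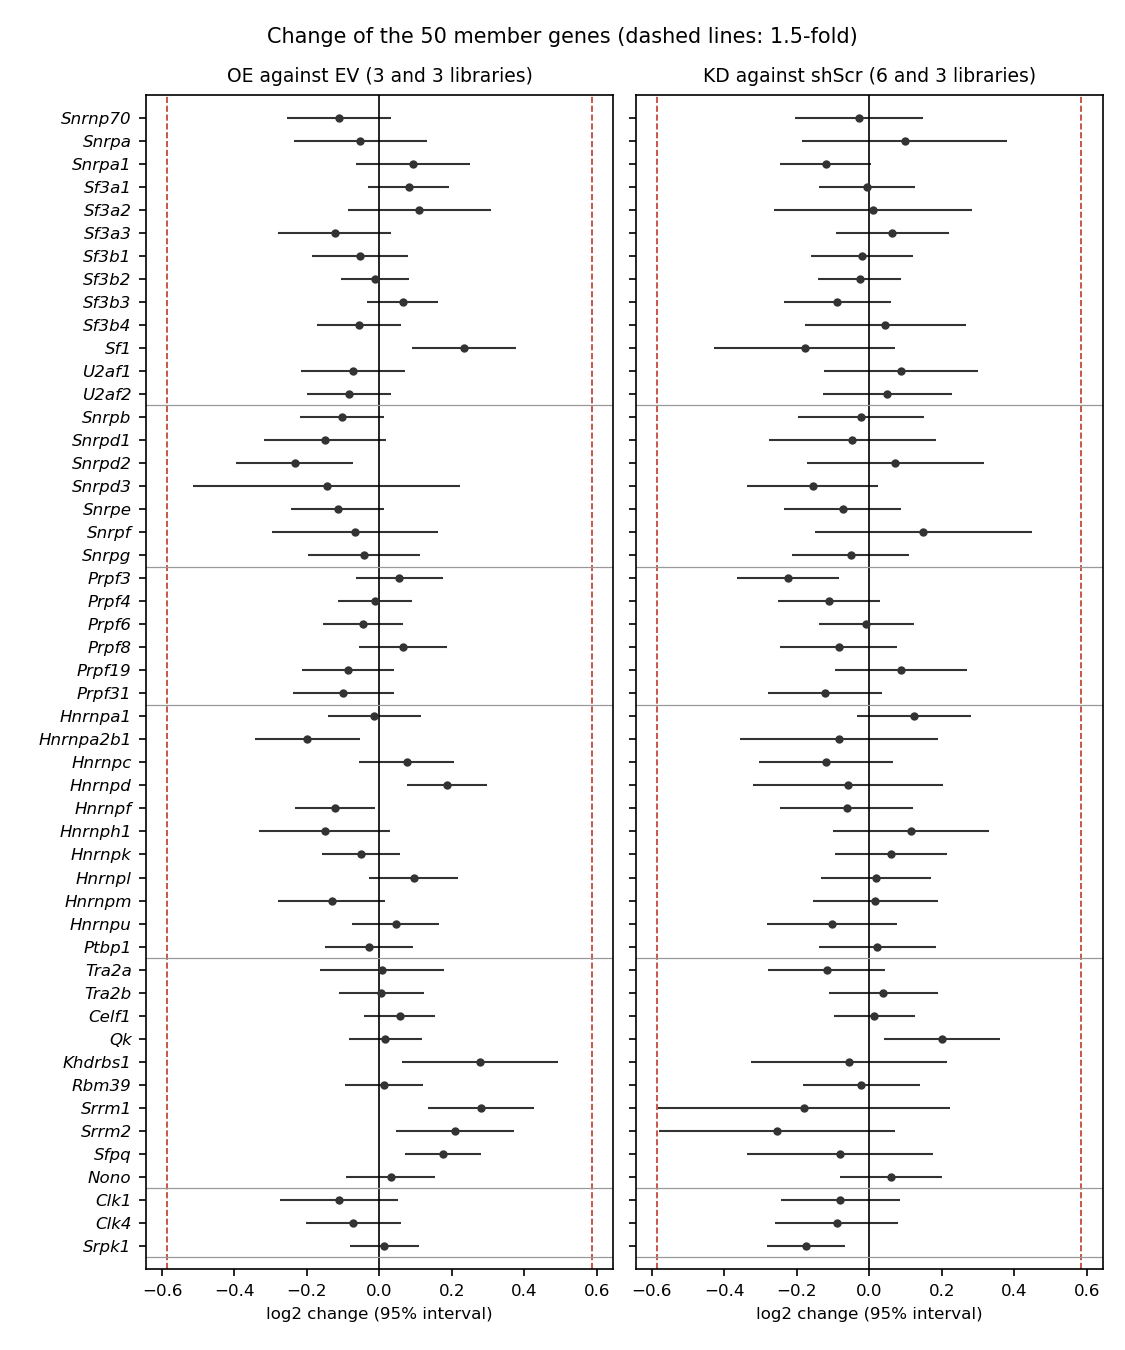
Log2 change of each of the 50 genes (x axis, point) with its 95% interval (line) in OE against EV (left, 3 and 3 libraries) and in KD against shScr (right, 6 and 3 libraries). Genes are on the y axis in the order of their roles, thin grey lines divide the 6 roles, and all intervals lie between the dashed lines that mark a 1.5-fold change.

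The 13 proteins of the U1 and U2 snRNPs and of branch point recognition had a median log2 change of -0.052 in OE (5 higher, 8 lower) and of -0.0065 in KD (6 higher, 7 lower), beside medians of 0.011 and -0.00038 over all genes. Without EV replicate 1 the median in OE was 0.0035 (8 higher, 5 lower). Over all genes 49.8% had a higher and 50.2% a lower mean in KD. The largest change in both comparisons was that of Sf1 (ENSMUSG00000024949), which recognises the branch point before the U2 snRNP arrives. Sf1 stood at 180.8, 196.7 and 207.3 CPM in EV and at 227.5, 217.9 and 241.7 CPM in OE. The OE libraries all lay above the EV libraries, by 0.23 ± 0.062 (SE), with an adjusted p of 0.243. In the hairpin lines Sf1 ranged from 200.1 to 229.4 CPM in shScr and from 151.5 to 225.6 CPM in KD, with a median of 191.1 CPM over the 6 KD libraries. The lowest were KD4 replicate 3 (151.5 CPM) and KD6 replicate 1 (171.9 CPM), the groups overlapped, and the change was -0.18 (adjusted p = 0.448).

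Snrpa1, a protein of the U2 snRNP that binds its RNA, stood at 59.8, 59.4 and 56.8 CPM in shScr, at 54.3, 51.0 and 51.6 CPM in KD4 and at 55.1, 55.8 and 55.9 CPM in KD6. All 6 KD libraries lay below all 3 shScr libraries. The log2 change was -0.12 with an interval of -0.25 to 0.0060 and an adjusted p of 0.312, and in KD4 alone it was -0.16 (adjusted p = 0.116). In the separate table of OE and EV, Snrpa1 ranged from 48.6 to 56.6 CPM in EV and from 54.1 to 59.5 CPM in OE. U2af1, which reads the end of the intron, stood at 34.7, 34.7 and 31.2 CPM in KD4, above its 28.0 to 30.0 CPM in shScr, and at 28.7, 25.3 and 31.7 CPM in KD6. It had the smallest p of the members for KD6 against KD4 (-0.23, adjusted p = 0.202).

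The 7 Sm proteins form a ring that assembles around small nuclear RNAs of the spliceosome. All 7 had a lower mean in OE than in EV, beside 46.2% of all genes, with a median log2 change of -0.12, and none of the 7 passed the test. The largest change was that of Snrpd2 (ENSMUSG00000040824), at 53.1, 44.6 and 49.1 CPM in EV and at 39.4, 42.3 and 42.5 CPM in OE. The libraries did not overlap, and the change was -0.23 ± 0.071 (SE) with an adjusted p of 0.285. EV replicate 1 was the highest of its table for Snrpb, Snrpd1, Snrpd2, Snrpd3 and Snrpe, and its value of 119.4 CPM for Snrpd3 stood above the 71.6 to 96.0 CPM of the other 5 libraries. Without EV replicate 1, 6 of the 7 were lower and the median was -0.069. Lower means in OE were not particular to the ring. With all libraries, 14 of 16 other snRNP proteins (median -0.099) and 7 of 10 minor spliceosome genes (median -0.098) were lower. The median was positive for other hnRNP and related proteins (0.0056), snRNP assembly (0.017) and other splicing kinases and phosphatases (0.039). In KD the Sm proteins had a median of -0.047, with 2 higher and 5 lower. Snrpd3 had the largest absolute change of the ring in KD (-0.16, adjusted p = 0.365), from 79.0 to 88.3 CPM in shScr and from 66.7 to 87.3 CPM in KD. Snrpb and Snrpf were lower in KD6 than in KD4 by 0.18 and 0.24 on the log2 scale (adjusted p = 0.245 and 0.442), and for Snrpf the value of KD4 replicate 3 (29.5 CPM) was the highest of the table.

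Of the 6 proteins of the tri-snRNP and the Prp19 complex, Prpf3 (ENSMUSG00000015748), which holds the U4 and U6 RNAs within the tri-snRNP, came nearest to the threshold. It stood at 67.1, 60.5 and 60.4 CPM in shScr, at 51.1, 53.0 and 55.6 CPM in KD4 and at 49.8, 54.9 and 56.4 CPM in KD6. Every KD library lay below every shScr library, the change was -0.22 ± 0.064 (SE), and the adjusted p was 0.0995. Both hairpins gave the same size of change, -0.23 in KD4 (adjusted p = 0.0790) and -0.22 in KD6 (adjusted p = 0.169), against 1 set of shScr libraries. The values of Prpf3 in the separate table of EV and OE, 50.3 to 56.2 CPM, lay within the range of KD4 and KD6, so that across the 15 libraries it was the 3 shScr libraries that lay above the rest. The tables were filtered separately and no test was made across them. Prpf4, the partner of Prpf3, changed by -0.11 in KD (adjusted p = 0.413), and the largest change in OE was that of Prpf31 (-0.099, adjusted p = 0.532), a protein that binds the U4 RNA. Prpf19, the ubiquitin ligase that gives its complex its name, was at 133.5 to 143.2 CPM in KD4 and at 114.7 to 137.4 CPM in KD6, with a change between them of -0.17 (adjusted p = 0.305).

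The 11 hnRNP proteins had medians of -0.029 in OE (4 higher, 7 lower) and of 0.017 in KD (6 higher, 5 lower). Without EV replicate 1 the median in OE was 0.0054 (6 higher, 5 lower), so its sign rested on that library. Hnrnpd, Hnrnpa2b1 and Hnrnpf had the smallest p values among them in OE. Hnrnpd (ENSMUSG00000000568), also known as AUF1, which binds AU-rich RNA, stood at 85.3, 87.8 and 85.4 CPM in EV and at 98.6, 93.5 and 102.4 CPM in OE. It was higher in each OE library than in any EV library, by 0.19 (adjusted p = 0.238). Hnrnpa2b1 stood at 898.4, 799.2 and 808.8 CPM in EV and at 761.9, 686.5 and 733.5 CPM in OE, lower in each OE library, by 0.20 on the log2 scale (adjusted p = 0.298). Hnrnpf, which binds G-rich RNA, had a change of -0.12 (adjusted p = 0.346), and its OE libraries (818.5 to 839.0 CPM) likewise lay below EV (862.1 to 932.6 CPM). In KD the largest change was that of Hnrnpa1, at 199.2 to 232.8 CPM in shScr and 218.6 to 258.3 CPM in KD (0.12, adjusted p = 0.410). Its change was 0.19 in KD4 (adjusted p = 0.136), and between the hairpins it was -0.13 (adjusted p = 0.394).

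All 10 splicing regulators had a higher mean in OE than in EV, beside 53.8% of all genes, with a median of 0.043, and none passed the test. With scaling by the median of ratios 8 of the 10 were higher, and with quantile normalization 6 of the 10. The changes of 6 of them lay under 0.06, and the other 4 ran from 0.17 to 0.28. Srrm1 and Srrm2 are coactivators with long arginine and serine-rich regions that sit in active spliceosomes. Srrm1 (ENSMUSG00000028809) stood at 170.0, 168.2 and 174.8 CPM in EV and at 192.2, 204.4 and 228.2 CPM in OE, with a change of 0.28 ± 0.064 (SE) and an adjusted p of 0.204. Srrm2 stood at 952.4, 896.7 and 992.0 CPM in EV and at 1046, 1037 and 1204 CPM in OE (0.21, adjusted p = 0.311).

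Sfpq, a partner of Nono in nuclear paraspeckles, stood at 318.6, 338.0 and 331.4 CPM in EV and at 377.3, 358.4 and 379.9 CPM in OE (0.17, adjusted p = 0.238). Khdrbs1, also known as Sam68, stood at 112.3, 142.7 and 146.9 CPM in EV and at 162.2, 163.6 and 158.5 CPM in OE (0.28, adjusted p = 0.306). For these 4 regulators every OE library lay above every EV library. For Khdrbs1 the gap rested in part on EV replicate 1, the lowest library. Without EV replicate 1, 9 of the 10 regulators had a higher mean in OE and the median was 0.068. Without OE replicate 1, 6 of the 10 were higher and the median was 0.021. Across the 50 members, 6 were higher and 5 lower in OE without any overlap of libraries, which came to 22% of them beside 20% of all genes (11.3% higher and 8.71% lower). Without EV replicate 1, which leaves fewer libraries to separate, 9 were higher and 6 lower in this way, beside 15.8% and 12.4% of all genes. Leaving out any 1 of the 6 libraries gave 6 to 15 higher and 6 to 12 lower, beside 28.2% to 32.3% of all genes in both directions together.

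In the hairpin lines the regulators had a median of -0.039 in KD. The largest change was that of Srrm2, at 1034, 941.1 and 1088 CPM in shScr, at 949.2, 781.0 and 628.1 CPM in KD4 and at 785.9, 1124 and 941.8 CPM in KD6. The groups overlapped, the change was -0.26 with an interval of -0.58 to 0.071 and an adjusted p of 0.415, and in KD4 it was -0.39 (adjusted p = 0.147). Srrm1 had the widest interval of the members in every hairpin comparison, from 117.2 CPM in KD4 replicate 3 to 213.4 CPM in KD6 replicate 2. KD4 replicate 3 and KD6 replicate 1 were the 2 lowest of the 9 hairpin libraries for 10 members. Of these, Srrm1, Sf1, Sfpq, Khdrbs1 and Hnrnpd were among the genes higher in OE without overlap, and Hnrnpc, Hnrnpu, Celf1, Sf3b2 and Sf3b3 were not. How often these libraries were the lowest over all genes was not counted. Over all genes their deviations from the mean of their line correlated at 0.42, the highest of any pair of libraries from different hairpin lines. Whether the pattern was particular to the members was not tested. The spread within lines of Srrm1, 0.34 as the SD of log2(CPM + 1), exceeded that of 97.2% of genes in the KD and shScr table. That of Srrm2 (0.24) and Khdrbs1 (0.22) exceeded 89.3% and 87.0%. The median spread of the 50 members was 0.10, beside 0.13 over all genes, which were not matched to the members for level.

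Qk (ENSMUSG00000062078), an RNA-binding regulator of exon choice, was the member nearest to a higher call. It stood at 165.0, 153.0 and 141.9 CPM in shScr, at 184.4, 177.4 and 188.9 CPM in KD4 and at 155.0, 171.6 and 180.4 CPM in KD6. All KD4 libraries lay above shScr and 1 KD6 library did not. The change was 0.26 ± 0.077 (SE) in KD4 with an adjusted p of 0.0604, 0.14 in KD6 (adjusted p = 0.442) and 0.20 in KD (adjusted p = 0.185), and KD6 did not differ from KD4 past the threshold (-0.12, adjusted p = 0.486). In KD4 it passed with quantile normalization (adjusted p = 0.0483) and without KD6 replicate 1, which only enters the estimate of spread there (adjusted p = 0.0459). In the separate table Qk ranged from 160.1 to 170.9 CPM over EV and OE.

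The 3 kinases were lower in KD than in shScr by their means, and none passed. Srpk1 (ENSMUSG00000004865), which phosphorylates SR proteins in the cytoplasm and so promotes their import, had the smallest p of all members in KD. It stood at 148.3, 156.0 and 146.7 CPM in shScr, at 135.2, 133.7 and 133.8 CPM in KD4 and at 130.9, 132.8 and 132.1 CPM in KD6. The 6 KD libraries lay close together and all below shScr. The change was -0.17 ± 0.049 (SE), with an interval of -0.28 to -0.067 and an adjusted p of 0.0939, and it was -0.16 in KD4 (adjusted p = 0.0953) and -0.19 in KD6 (adjusted p = 0.110). Its spread within lines was 0.028, exceeding that of 0.285% of genes in the table. In the separate table it ranged from 146.6 to 153.8 CPM over EV and OE, alongside shScr. Clk1 and Clk4, which phosphorylate SR proteins in the nucleus, changed by -0.080 and -0.090 in KD (adjusted p = 0.637 and 0.596), and Clk1 had the largest change of the kinases in OE (-0.11, adjusted p = 0.542). Across all 50 members, Prpf3, Snrpa1 and Srpk1 were the 3 whose KD libraries all lay below shScr, and none lay wholly above, which came to 6% beside 10.8% of all genes (6.16% higher and 4.65% lower).

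**Figure D2:**
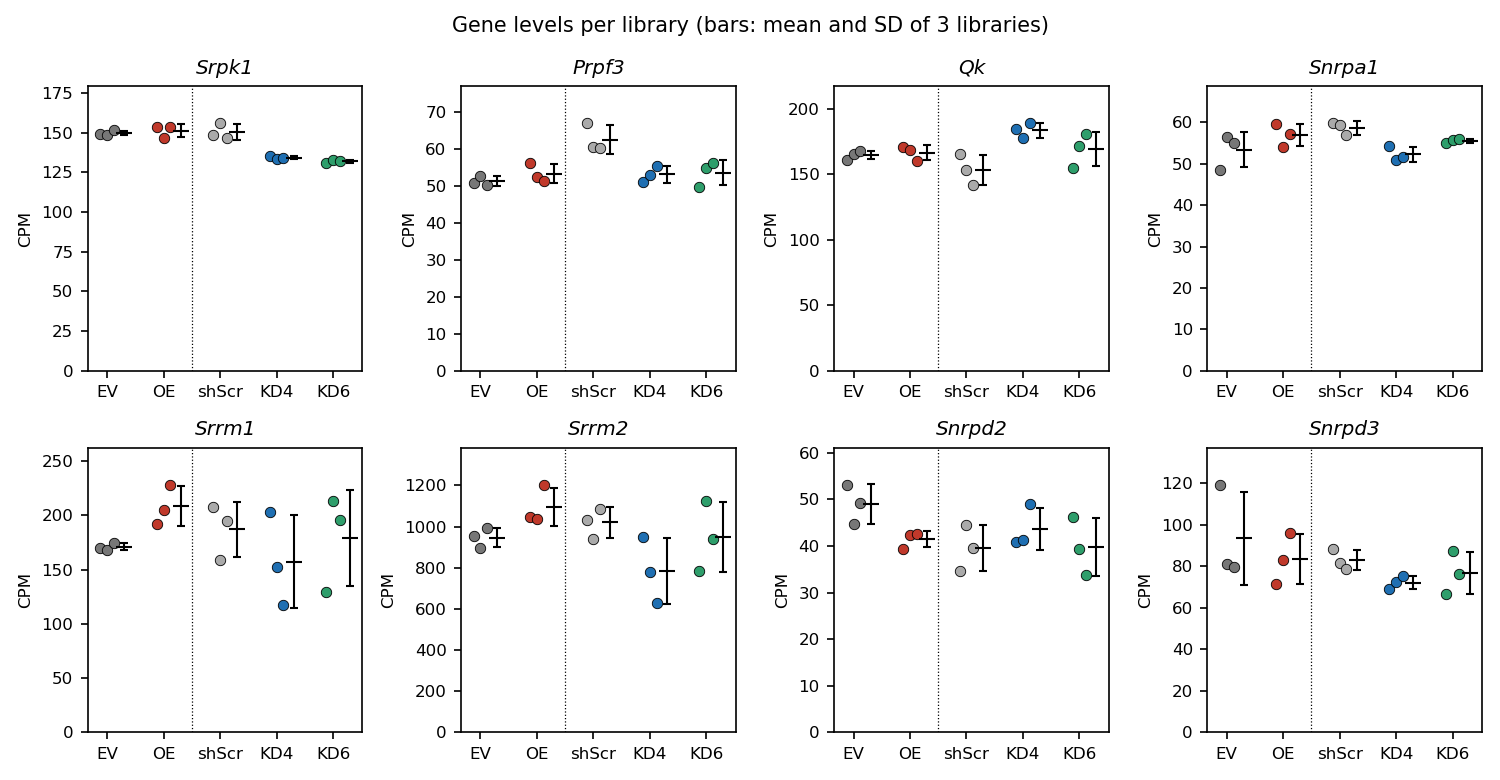
Levels of 8 genes in CPM (y axis, from 0) by line and library (x axis), with the mean and SD of a line's 3 libraries to the right of its points; the dotted line divides the OE and EV table from the KD and shScr table. Srpk1 lay at 130.9 to 135.2 CPM in KD4 and KD6 and at 146.6 to 156.0 CPM elsewhere, Prpf3 was highest in shScr, and Srrm1 and Srrm2 spread widely in KD4 and KD6.

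A comparison of the 2 effects used the sum of each gene's transcripts in the table that held all 15 libraries. The OE effect minus the KD effect passed for 0 of 50 members, beside 1.9% of 13142 genes, and 6 members had an unadjusted p under 0.05 beside 18.7% of all genes. These 6 were Prpf3 (0.34, adjusted p = 0.143), Snrpa1 (0.23, adjusted p = 0.176), Srrm2 (0.43, adjusted p = 0.216), Sf1 (0.38, adjusted p = 0.222), Snrpd2 (-0.33, adjusted p = 0.252) and Srpk1 (0.16, adjusted p = 0.253). For 43 of 50 members the interval of this difference lay within 1.5-fold, and the widest was that of Srrm1. The sums ran from 74.1% to 109% of the gene values over members and libraries.

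**Figure D3:**
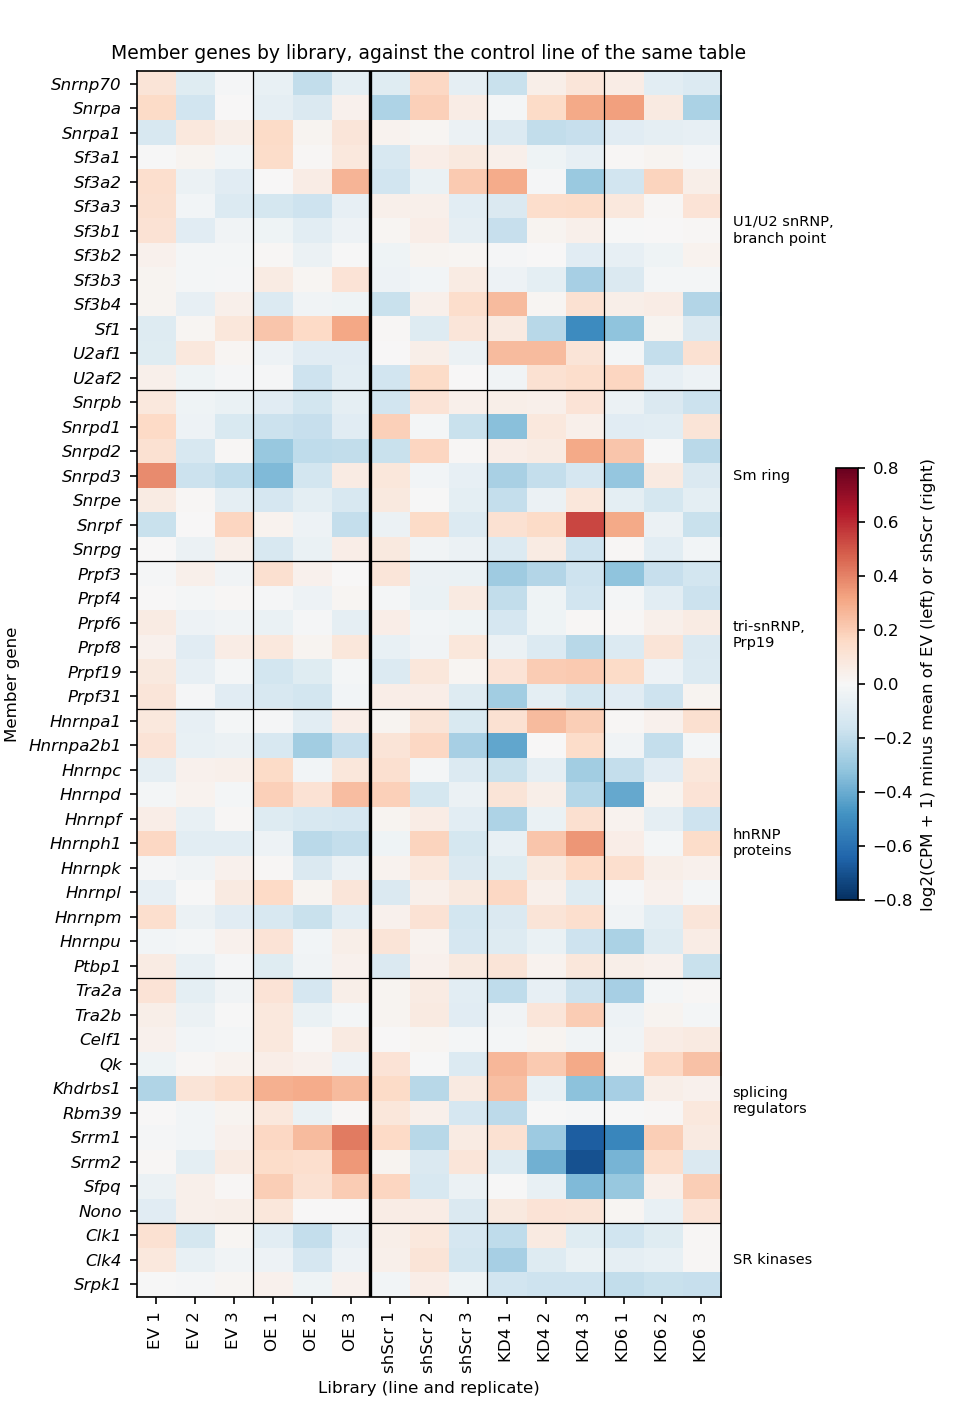
Each cell is the log2(CPM + 1) of 1 gene (y axis, by role) in 1 library (x axis) minus the mean of EV (left of the thick line) or of shScr (right of it), from blue (lower) to red (higher). Sf1, Srrm1, Srrm2 and Khdrbs1 are red in OE and blue in KD4 replicate 3 and KD6 replicate 1. Srrm2 is also blue in KD4 replicate 2. Whether this pattern is particular to the members was not tested. Snrpd3 is red in EV replicate 1, and Srpk1 is pale blue in all 6 KD libraries.

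Among 173 other genes of splicing and of nonsense-mediated decay in 9 lists, 154 were measured. In OE 0 of 154 passed, with a median of -0.031. The smallest p values belonged to Scaf4 (0.26, adjusted p = 0.198), Hnrnpul2 (0.19, adjusted p = 0.220), Ewsr1 (-0.18, adjusted p = 0.234), Scaf1 (0.23, adjusted p = 0.252) and Pcbp1 (0.27, adjusted p = 0.279). In KD and in KD6 0 of 154 passed. The nearest in KD were Mbnl3 (-0.26, adjusted p = 0.0829), Aqr (-0.17, adjusted p = 0.137), Dhx8 (-0.15, adjusted p = 0.182), Bud31 (-0.18, adjusted p = 0.182) and Usp39 (-0.16, adjusted p = 0.183). Those in KD6 were Aqr (-0.20, adjusted p = 0.117), Mbnl3 (-0.25, adjusted p = 0.145), Tia1 (-0.19, adjusted p = 0.179), Ddx17 (-0.18, adjusted p = 0.185) and Cdk12 (-0.18, adjusted p = 0.230).

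In KD4 4 of 154 passed, beside the 9.58% of all genes, with 2 higher and 2 lower (5.71% and 3.87% of all genes). Scaf11, an SR-related protein, rose by 0.29 (adjusted p = 0.0184), from 270.8 to 286.8 CPM in shScr to 325.9 to 352.6 CPM in KD4. Khdrbs3, a relative of Khdrbs1, rose by 0.42 (adjusted p = 0.0352), from 1.33 to 1.42 CPM to 1.93 to 2.35 CPM. Gemin5, which brings small nuclear RNAs to the machinery that assembles snRNPs, fell by 0.30 (adjusted p = 0.0248), from 106.6 to 117.8 CPM to 86.7 to 96.9 CPM.

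Smg1, the kinase of nonsense-mediated decay, fell by 0.27 in KD4 (adjusted p = 0.0423), from 333.4 to 350.2 CPM to 267.2 to 293.2 CPM. Mbnl3 did not pass there (-0.26, adjusted p = 0.0613), and passed without KD6 replicate 1 (adjusted p = 0.0496). Between the hairpins Ddx17 (-0.34, adjusted p = 0.0103) and Khdrbs3 (-0.46, adjusted p = 0.0354) passed, while Smg6 (0.24, adjusted p = 0.0728), Taf15 (-0.36, adjusted p = 0.132) and Scaf11 (-0.19, adjusted p = 0.133) did not. None of the 152 with a gene sum passed for the OE effect minus the KD effect, where Mbnl3 (0.34, adjusted p = 0.0758), Gemin5 (0.27, adjusted p = 0.0785), Cdk12 (0.24, adjusted p = 0.118), Son (0.28, adjusted p = 0.122) and Tgs1 (0.36, adjusted p = 0.140) came nearest. None of these calls but that of Ddx17 survived the loss of every single library. In KD4 the call of Scaf11 was lost without shScr replicate 2 or 3 or KD4 replicate 2 (adjusted p up to 0.0800), that of Gemin5 also without KD4 replicate 3 (up to 0.0923), and that of Khdrbs3 without each of the shScr libraries or KD4 replicate 2 or 3 (up to 0.111). That of Smg1 (up to 0.132) was lost without most single libraries, as was that of Khdrbs3 between the hairpins (up to 0.145). Without KD4 replicate 1, Gemin5 (0.0361) and Cdk12 (0.0469) passed for the difference of the effects.

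The study asked whether Smarcd1 affects splicing, and the transcripts of the machinery itself were therefore examined. Of the 50 members, 44 had at least 2 listed transcripts and 6 had 1, and Hnrnpk had the most, 16. At the level of single transcripts 0 of 269 passed in OE, beside 0 of 30220 in all, and 0 of 269 passed in KD beside 0.295% of all. At an unadjusted p under 0.05 there were 32 member transcripts in OE (11.9%, beside 9.65% of all) and 20 in KD (7.43%, beside 12%). In KD 2 of the 269 (0.743%) were higher and 18 (6.69%) lower at that p, beside 6.05% and 5.97% of all transcripts. The 95% interval lay within 1.5-fold for 179 of the 269 in OE and 178 in KD, so larger changes of the other transcripts cannot be told from none at this number of libraries.

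In the test of transcript usage, which asks whether a transcript changed relative to the other transcripts of its gene, 2 of the 44 members were called in OE, Hnrnpd and Nono. This came to 4.55% of them, beside 1.37% of 7077 genes. In KD 0 of 44 were called beside 1.29% of all. The test (diffSplice of limma) takes 1 spread for all transcripts of a gene, and in simulated data whose transcripts each kept their observed spread it called more unchanged genes than its threshold allows. In these simulated data the errors of transcripts were drawn independently, which need not hold for transcripts of the same gene. With a spread for each transcript, an alternative added after the data were seen, neither gene was called (Hnrnpd adjusted p = 0.631, Nono adjusted p = 0.648) and 0 of 7077 genes passed in OE. How large a shift that alternative can call is not reported here, so its result does not show that usage was unchanged. Leaving out EV replicate 3, or either of the first 2 OE libraries, left neither called (adjusted p for Hnrnpd 0.0823, 0.281 and 0.106, for Nono 0.116, 0.139 and 0.171), and without EV replicate 1 or OE replicate 3 Nono was not (0.109 and 0.215).

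The Hnrnpd transcripts named below can be told apart by their exon junctions. Hnrnpd lies on the minus strand of chromosome 5 (100387445 to 100407957, NCBIM37, GENCODE vM1). Its leading coding transcript, ENSMUST00000112939, holds an exon of 147 bases (chr5:100392750-100392896) between exons of 100 and 98 bases. ENSMUST00000171106 joins these neighbours directly and adds an exon of 107 bases after the stop codon, and the annotation places it in the class of nonsense-mediated decay. The join that skips the exon is held by 3 of the 8 listed Hnrnpd transcripts, 2 of them protein-coding, so it does not mark ENSMUST00000171106, whereas the join into the 107-base exon is in ENSMUST00000171106 alone of the 8. ENSMUST00000171786, on which the usage call rested, is the only one of the 8 with the join from its first exon of 40 bases to its second of 70 bases. The join into the 147-base exon is held by 3 of the 8, ENSMUST00000112939, ENSMUST00000168396 and ENSMUST00000172361, so it does not mark the leading transcript. Of these, ENSMUST00000168396 is also annotated in the class of nonsense-mediated decay. The junctions are shown because they separate ENSMUST00000171786 and ENSMUST00000171106 from the leading transcript. They are written from the transcript sequences of GENCODE vM1, 5′ to 3′, with the 15 bases downstream of the junction in capitals.
Into the 147-base exon, ENSMUST00000112939: gcggaagaggtggagGCCCCAGTCAAAACT
Skipping the 147-base exon, 3 transcripts with ENSMUST00000171106: gcggaagaggtggagATCAGCAGAGTGGTT
Into the 107-base exon, ENSMUST00000171106: acttatccccaacagCGGGAACTTCATTGC
First exon to second, ENSMUST00000171786: taaagcgaggaggagGCACCGAAGGAGGCA

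For Hnrnpd, ENSMUST00000171106 stood at 12.4, 16.7 and 16 CPM in EV and at 25.5, 21.8 and 25.3 CPM in OE. All OE libraries lay above EV, and its share of the Hnrnpd transcripts was 18.2% ± 3.17 (SD, n = 3) in EV and 25.9% ± 1.69 (SD, n = 3) in OE. As a single transcript it had the smallest p of the 269 in OE, with a log2 change of 0.66 ± 0.13 (SE) and an adjusted p of 0.441. ENSMUST00000171786, a partial protein-coding transcript, stood at 5.58, 4.85 and 6.25 CPM in EV and at 2.17, 3.02 and 4.27 CPM in OE, all OE libraries below EV (-0.69, adjusted p = 0.464). The usage call rested on it (-0.86 relative to the other Hnrnpd transcripts, adjusted p = 0.0260). The leading transcript, ENSMUST00000112939, showed overlapping values of 28.7 to 40.3 CPM in EV and 31.3 to 36.2 CPM in OE. In the hairpin lines ENSMUST00000171106 ranged from 20.5 to 35.8 CPM in shScr and from 15.3 to 38.3 CPM in KD, so that single lines spanned as much as OE and EV together. Its share of Hnrnpd was 24.7% ± 3.95 (SD, n = 3) in shScr, near that of OE, and 25.5% ± 6.90 (SD, n = 6) in KD.

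Nono, an RNA-binding partner of Sfpq, lies on the plus strand of the X chromosome (98624657 to 98643930, NCBIM37, GENCODE vM1). Its called transcript, ENSMUST00000147498, is annotated as retained_intron, since its first exon holds 339 bases of the intron upstream of exon 6 of the coding transcript. It stood at 0.845, 2.67 and 1.71 CPM in EV and at 3.22, 3.37 and 4.11 CPM in OE, with no overlap, and changed by 0.79 relative to the other Nono transcripts (adjusted p = 0.0399). Its share of Nono was 0.468% ± 0.239 (SD, n = 3) in EV and 0.963% ± 0.149 (SD, n = 3) in OE. In shScr it stood at 18.8, 5.09 and 8.10 CPM and in KD at 1.85 to 15.5 CPM, with overlap, and 2 of the 6 KD libraries lay below all of OE. The Nono gene level itself had a change of 0.031 in OE (adjusted p = 0.835).

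**Figure D4:**
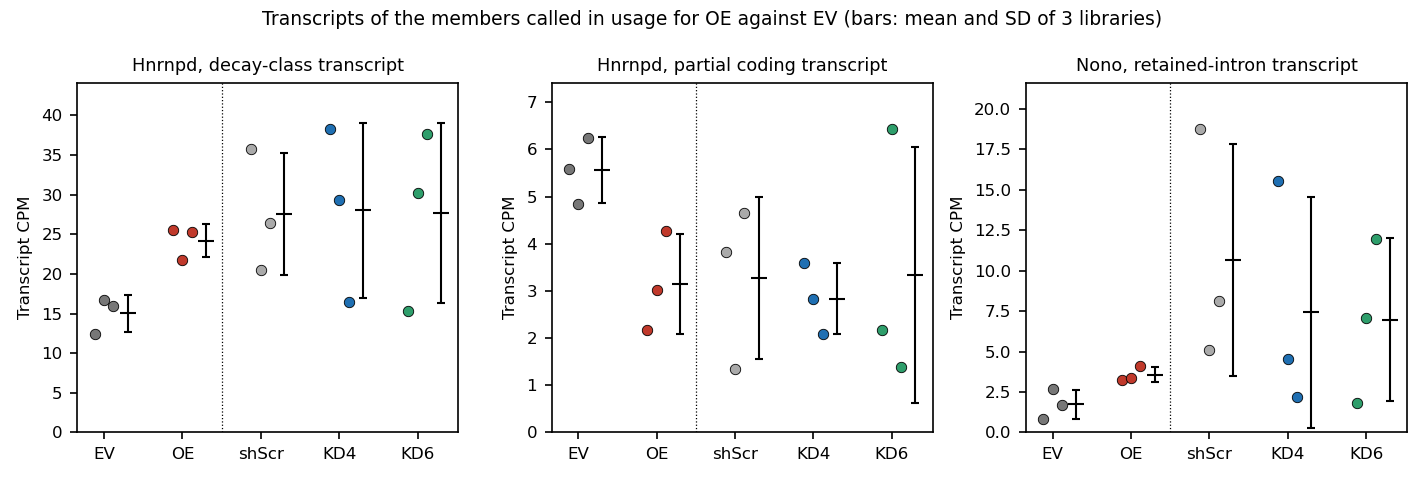
CPM of 3 transcripts (y axis, from 0), by line and library (x axis), with the mean and SD of the 3 libraries of a line beside its points; the dotted line divides OE and EV from the hairpin lines. For Hnrnpd ENSMUST00000171106 (left) and Nono ENSMUST00000147498 (right) OE lay above EV, for Hnrnpd ENSMUST00000171786 (middle) below, and the hairpin lines spread across or beyond both.

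The next usage results in OE were Prpf8 (adjusted p = 0.101), the protein at the catalytic centre of the spliceosome, Hnrnpl (adjusted p = 0.130) and Clk4 (adjusted p = 0.136). The smallest in KD were Clk4 (adjusted p = 0.353), Hnrnpm (adjusted p = 0.363), Hnrnpa1 (adjusted p = 0.374), Snrpa (adjusted p = 0.407) and U2af2 (adjusted p = 0.430). None of these passed.

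Among single transcripts in OE, the other small p values belonged to transcripts of Hnrnpa2b1 (ENSMUST00000203220, -0.41), Srrm2 (ENSMUST00000190686, 0.32, and ENSMUST00000189977, -0.59), Tra2a (ENSMUST00000204013, 0.34), Prpf8 (ENSMUST00000133995, 0.55) and Celf1 (ENSMUST00000111452, 0.33), with adjusted p values from 0.441 to 0.458. ENSMUST00000203220 of Hnrnpa2b1 stood at 216, 184 and 196 CPM in EV and at 147, 139 and 162 CPM in OE, without overlap. ENSMUST00000190686 carried most of Srrm2 and stood at 614 to 732 CPM in EV and 778 to 913 CPM in OE.

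In KD they belonged to Snrnp70 (ENSMUST00000209237, -0.44), Srpk1 (ENSMUST00000232882, -0.32, and ENSMUST00000114767, -0.36), Qk (ENSMUST00000233645, 0.32), Nono (ENSMUST00000136251, -0.37), Srrm2 (ENSMUST00000186914, -0.57), U2af2 (ENSMUST00000207960, -0.36) and Celf1 (ENSMUST00000127385, -0.36), with adjusted p values from 0.253 to 0.300. Both Srpk1 transcripts were minor, at 1.59 to 2.82 CPM in shScr and 0.843 to 2.18 CPM in KD.

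To ask whether transcripts that keep an intron or are marked for decay took a different part of the machinery's RNA, the member transcripts were sorted by the class that GENCODE vM1 gives them. Of the 269, 183 were found there, with 97 protein-coding, 49 retained-intron, 22 processed and 15 nonsense-mediated decay transcripts, and 86 were not found. Those not found held on average 25.8% (EV) to 27.6% (shScr) of the members' CPM. In all other genes such transcripts held 14.2% (EV) to 15.6% (KD6), so class shares of members and of other genes are not like for like. The retained-intron transcripts came from 19 genes, among them Clk1, Ptbp1 and Hnrnpl, and the decay transcripts from 11 genes. This tally was added after the data were seen. The retained-intron class took 2.71% to 2.92% of the members' transcript CPM in EV, 2.77% to 3.07% in OE, 3.39% to 3.55% in shScr and 3.19% to 3.50% in KD. The groups overlapped in both comparisons. The difference was 0.112 percentage points in OE (exact permutation test, two-sided, p = 0.4, where 3 against 3 libraries cannot go below 0.1) and -0.155 in KD (exact permutation test, p = 0.0714, adjusted over 8 tests 0.286).

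Among all other genes the retained-intron share was lower than among the members, 1.81% to 1.85% in EV, 1.79% to 1.93% in OE, 2.09% to 2.14% in shScr and 1.93% to 2.05% in KD. There every KD library lay below shScr (exact permutation test, p = 0.0238, the smallest that 6 against 3 libraries allow, adjusted 0.190). The decay class took 7.30% to 8.73% of the members' CPM in EV, 8.23% to 9.02% in OE, 8.78% to 9.86% in shScr and 8.09% to 10.1% in KD, with exact permutation p values of 0.500 in OE and 0.619 in KD. Most of it was 1 transcript of Hnrnpu, ENSMUST00000161769, which held on average 64.4% of Hnrnpu in EV, 65.9% in OE, 65.8% in shScr, 66.2% in KD4 and 65.8% in KD6, with SDs of 1.07 to 3.10 percentage points (n = 3 each). Without Hnrnpu the decay class took 1.22% to 2.34% over the 15 libraries. In all other genes it took 0.640% to 0.822%.

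**Figure D5:**
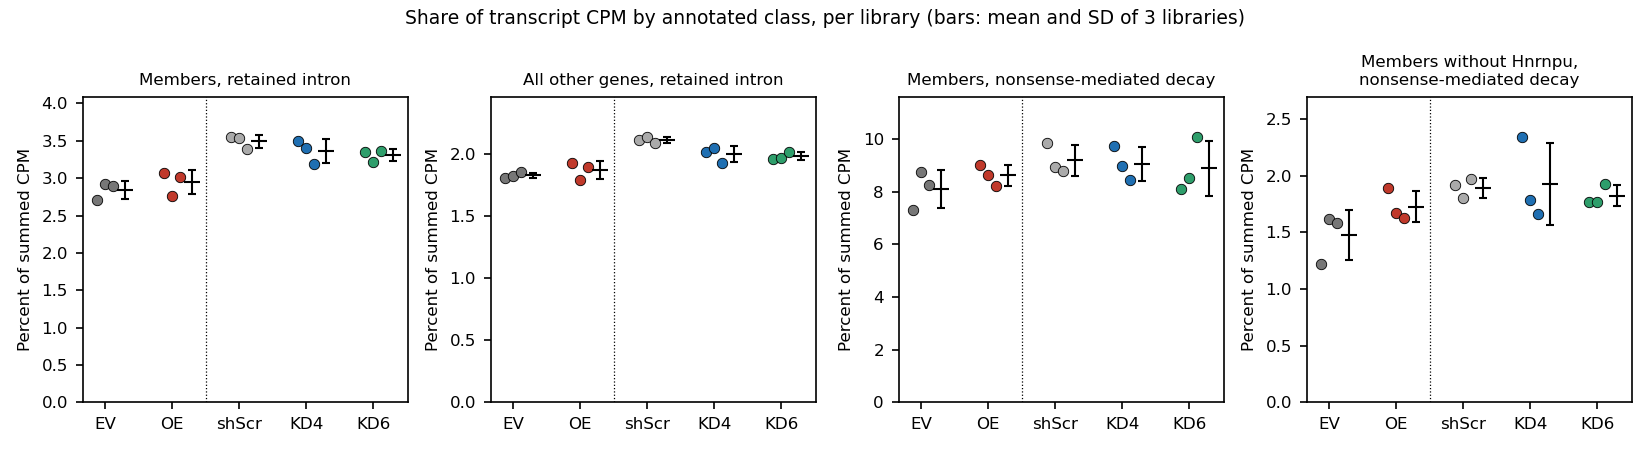
Percent of summed transcript CPM (y axis, from 0) in transcripts annotated as retained intron or nonsense-mediated decay, by line and library (x axis), with the mean and SD of 3 libraries beside the points. The hairpin lines lay above EV and OE in both retained-intron panels, and OE overlapped EV in all panels.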

How the data were processed

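The authors deposited CPM values, made from fractional read counts, in 2 gene tables and 1 transcript table, which list only features with a geometric mean of at least 1 CPM. The submitters' processing notes name STAR 2.7.8a and mm39, whereas the published methods describe other, earlier software and an earlier build, so no coordinate was taken from the files. Depth is unknown and no counts could be recovered, so neither count tests nor counting intervals were possible. In the transcript table, 15 further columns of values matched no sample and were not used.

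Tests used log2(CPM + 1) in limma 3.58.1 (R 4.3.3), with an intensity trend, adjusted by Benjamini and Hochberg over all features of a table. Fold changes are on that scale and understate changes of low features. OE was fitted with EV, KD (KD4 and KD6 as 1 group) with shScr, and the hairpins also as 3 groups with 1 spread. The OE and KD effects were set against each other on gene sums in 1 fit of 5 groups, and usage was tested with diffSplice and Simes' method.

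The 50 members, their roles and all lists were chosen with earlier results of these data known. Some genes of the lists are not reported here. Named were, per comparison, the 6 members with the smallest p (or those past the threshold), the largest change of each role in OE and KD, 8 transcripts, 5 usage genes, 5 other splicing genes and Smarcd1. Clk4, Snrpb, Snrpd1, Snrpe, Hnrnpu, Nono as a gene and others in ranges were named after their values were seen. Transcript classes, exons and sequences came from GENCODE vM1 (NCBIM37), which is older than some transcript identifiers of the files. Class shares were tested with exact permutation tests (scipy 1.17.1). Alternatives were a pseudocount of 0.1, a minimum mean of 5 CPM, quantile normalization, scaling by the median of ratios, a replicate block, no intensity trend, the mean of the hairpins and leaving out each library. Plots were made in Python 3.11.15 (matplotlib 3.10.9).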

Additional observations from a re-analysis of the deposited data

Results flagged for a closer look

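In 2 genes of the other splicing lists the effect against shScr differed between the hairpins by the test of that difference (limma, KD6 minus KD4, adjusted over all genes), and no gene of the 50 did. Ddx17, an RNA helicase that takes part in splicing, differed by -0.335005 on the log2 scale (adjusted p = 0.0103), with 198, 208 and 205 CPM in shScr, 232, 229 and 221 CPM in KD4 and 174, 191 and 176 CPM in KD6. KD4 lay above shScr and KD6 below it in every library. Khdrbs3, near the lowest listed levels, differed by -0.456072 (adjusted p = 0.0354), with 1.93, 2.30 and 2.35 CPM in KD4 and 1.37, 1.15 and 1.48 CPM in KD6. Smarcd1 itself was lower in KD4 than in KD6, and the part of that difference in these results was not tested.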

How the results depend on the processing

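In no alternative did a called member change its direction. The count of members called in KD4 was 1 (Qk) with quantile normalization, and 0 to 1 when single libraries were left out. The count of members called for usage in OE (2) was 0 with a minimum mean of 5 CPM, 0 with the replicate block, 0 with a spread for each transcript (chosen after the data were seen) and 0 to 2 when single libraries were left out. The Hnrnpd and Nono transcripts on which the usage calls rested have means under 5 CPM over EV and OE. The minimum of 5 CPM removes them, so it is no test of those calls. In the other comparisons 0 members were called under every alternative that was run. Adjusted p ranged over the alternatives from 0.0578 to 0.336 for Srpk1 and from 0.0667 to 0.358 for Prpf3 in KD, from 0.168 to 0.557 for Srrm1 in OE, and from 0.0459 to 0.182 for Qk in KD4. The median of the Sm ring in KD4 was -0.048, and 0.065 without KD4 replicate 1.

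Replicate numbers did not pair the libraries. Deviations of same-numbered libraries correlated at -0.149 to 0.258 over 3 pairs of OE and EV and at -0.328 to 0.0614 over 9 pairs of hairpin lines. Those of differently numbered libraries correlated at -0.329 to 0.224 over 6 pairs and at -0.332 to 0.422 over 18 pairs. Whether libraries of different lines belonged together under other numbers was not tested, and the main tests did not pair libraries. With the replicate block, 0 members were called in every comparison, and over all genes the counts were 114 in KD (364 without the block), 626 in KD4 (1310), 179 in KD6 (398), 349 between the hairpins (671) and 43 for the difference of the effects (250). None of the calls in the other splicing lists passed with it (adjusted p 0.0508 to 0.127). As the numbers did not pair the libraries, a call lost with the block does not tell whether that call holds. For usage the counts over all genes were 25 in OE (97) and 28 in KD (91) with the block, 19 and 20 with a minimum mean of 5 CPM, and 0 and 2 with a spread for each transcript. Single transcripts called in KD numbered 1 with the block (89 without it), 184 with the mean of the hairpins and 57 without the intensity trend. With the mean of the hairpins 847 genes were called in KD, Smarcd1 among them (adjusted p = 0.0130). With quantile normalization 3 genes were called in OE.

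Over all features, leaving out single libraries gave 0 to 1 genes in OE, 92 to 397 in KD, 641 to 1309 in KD4, 151 to 419 in KD6, 298 to 611 between the hairpins and 91 to 411 for the difference of the effects. It gave 26 to 165 genes for usage in OE and 39 to 107 in KD. Depth is unknown, so its part in the precision of a value cannot be given. With 3 libraries a line, the intervals bound most members within 1.5-fold but leave wider changes possible for low transcripts.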

Other observations

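The retained-intron share of the members' transcript CPM ran from 3.19% to 3.55% over the 9 hairpin libraries and from 2.71% to 3.07% over the 6 libraries of EV and OE, without overlap. Over all other genes it ran from 1.93% to 2.14% and from 1.79% to 1.93%, also higher in the hairpin libraries, so this was not particular to the members. The hairpin lines and the EV and OE pair differed in vector, drug and Smarcd1 level of the control (27.1 to 31.9 CPM in EV, 14.5 to 16.5 CPM in shScr), and these cannot be told apart.

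KD4 replicate 3 was the lowest of the 9 libraries for 12 of the 50 members and the highest for 11. KD4 replicate 1 was the lowest for 13 and the highest for 6, and KD4 replicate 2 for 1 and 1. The same counts were not made over all genes, so whether they are particular to the members was not tested.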
